A study of Mus musculus with 8 samples.

Results

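The response of mouse liver to partial hepatectomy was examined in animals carrying the GFAP Cre transgene. It is covered by 4 of the 8 whole-liver RNA sequencing libraries of the series, taken by their labels and not by any measured value. Cre-positive hepatectomy replicates 1 and 2 came from livers collected 72 h after surgery, and Cre-positive sham replicates 1 and 2 from livers after a sham operation. All animals had both alleles of b-PDGFR floxed (fl/fl; gene Pdgfrb, a tyrosine kinase receptor for PDGF, the platelet-derived growth factor), were of the strain 129S4/SvJae/FVB and were 3 months old. Both groups compared here carried Cre as +/-, and the other 4 libraries, 2 from sham and 2 from hepatectomy livers of GFAP Cre -/- animals, lacked it. No Cre-positive animals without floxed alleles were analysed here, so an effect of Cre itself and one of the deletion cannot be told apart. The labels describe the deletion as limited to hepatic stellate cells, whereas RNA (2.5 ug a library) was made from the whole organ, so every value averages hepatocytes, stellate cells and all other liver cells. In whole tissue, fewer cells of a type and less RNA per cell cannot be told apart. Duplicates are not said to come from separate animals. The p-values rest on 1 spread per gene, pooled over the groups of all 8 libraries, and this spread may be technical.

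After resection, hepatocytes that are normally quiescent leave their resting state, pass through G1 under D-type cyclins, copy their DNA and divide, while the remaining liver keeps up glucose supply, bile formation and detoxification. Stellate cells are the vitamin A-storing pericytes of the sinusoid. They respond to platelet-derived growth factor, and are a source of hepatocyte growth factor and, once activated, of collagen. Genes needed for mitosis are switched on together in G2, largely through promoter elements called CCAAT boxes, bound by NF-Y, and cell cycle genes homology regions (CHR), bound by the MuvB complexes that carry B-MYB and FOXM1. Genes of DNA synthesis are controlled mainly through E2F sites. Interferon-induced genes carry a different element, bound by factors that interferon activates.

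Promoters of 5 genes that rose, 4 of mitosis and 1 induced by interferon, are shown first, since those groups stood in opposite order in the pair of hepatectomy libraries. They were picked from the named genes as ones that hold the elements searched for their group. Racgap1, Kif4 and Kif23 had 1 match each to those of mitosis. Tap1 and Psmb9 had 0 matches to the interferon element, the only one counted for them. They are RefSeq sequences of the build GRCm38.p6, read 5′ to 3′ on the strand of the gene and ending at the base before the annotated start. Capitals mark the elements in either orientation. A CHR was searched as TTTGAA, and a CCAAT box by the 5 letters of its name. An E2F site was searched as TTCCCGC, or else in the second form of the element, TTGGCGC. In Ccnb1 an E2F site overlaps the first CCAAT box. Ccnb1, cyclin B1, is at chr13:100786487-100786616 (minus strand), Ccnb2, cyclin B2, at chr9:70421555-70421684 (minus), Cdkn3, a phosphatase of CDK complexes, at chr14:46760411-46760540 (plus), and Espl1, the separase that cuts cohesin at anaphase, at chr15:102296163-102296292 (plus).
Ccnb1: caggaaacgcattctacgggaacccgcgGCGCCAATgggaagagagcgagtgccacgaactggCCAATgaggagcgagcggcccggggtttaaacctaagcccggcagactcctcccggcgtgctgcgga
Ccnb2: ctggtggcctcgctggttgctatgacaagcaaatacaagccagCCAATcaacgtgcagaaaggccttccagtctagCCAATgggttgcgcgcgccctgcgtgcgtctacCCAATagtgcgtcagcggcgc
Cdkn3: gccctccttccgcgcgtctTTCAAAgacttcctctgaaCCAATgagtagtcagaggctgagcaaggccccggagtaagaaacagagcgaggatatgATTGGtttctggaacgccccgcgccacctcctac
Espl1: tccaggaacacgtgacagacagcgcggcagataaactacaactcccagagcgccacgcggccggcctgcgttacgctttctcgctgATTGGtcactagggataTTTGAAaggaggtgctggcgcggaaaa

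Bst2, which encodes the interferon-induced membrane protein tetherin, is at chr8:71537473-71537672 (minus strand). Capitals mark 2 overlapping matches to the interferon element searched, GAAA followed by any 2 bases and a second GAAA.
Bst2: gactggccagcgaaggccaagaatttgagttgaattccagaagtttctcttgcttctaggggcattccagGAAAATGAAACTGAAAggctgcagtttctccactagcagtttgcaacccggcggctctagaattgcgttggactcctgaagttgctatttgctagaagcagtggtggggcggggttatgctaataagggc

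The shares of promoters with these elements were counted in the 250 bases upstream of each start, on both strands. Each share is set beside that of the 13327 promoters of genes tested and then that of all 32851 promoters of the table. A CCAAT box was found in 77.6% of the 49 promoters of 47 matched G2 and mitosis genes and in 59.5% of the 42 promoters of DNA replication genes, against 35.2% and 33.8%. A CHR was found in 38.8% of the mitosis and 14.3% of the replication promoters, against 11.2% and 16%. Both together were in 36.7% of the mitosis promoters, against 4.22% and 5.55%. The E2F letters were in 31.0% of the replication and 10.2% of the mitosis promoters, against 9.03% and 5.62%. The interferon element was in 11 of 25 promoters of interferon-induced genes (44.0%), against 2.69% and 2.98%. A match describes the letters in that window and is not a measured binding site.

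The 4 Cre-positive libraries had summed signals of between 10115909 and 11583777 in the unit the authors deposited, a normalized value per gene whose sequencing depth is unknown. The sham libraries lay close together, with a median absolute log2 difference of 0.2 between them over 16443 genes. The hepatectomy libraries differed by 0.68. Relative to sham, the median log2 difference of all genes was -0.03 in hepatectomy replicate 1 and 0.18 in replicate 2. Hpx, the heme scavenger hemopexin, alone held 12.5% of the signal of hepatectomy replicate 2 against 3.28% in replicate 1. In replicate 2 the value of a gene also followed the GC content of its transcript: relative to sham, 782 genes under 40% GC had a median log2 difference of -1.58 and 3797 genes of 55% or more one of 0.66. Replicate 1 showed no such trend, at -0.01 and -0.11. Because of this trend library values are given beside the results below, and for some results also the values after the GC trend of each library had been removed, which narrowed the difference between the hepatectomy libraries to 0.48. An exact 0 can be a failed estimate in these values (Trf, the transferrin gene, was listed at 0 in hepatectomy replicate 1 and at 699462 in replicate 2), so no fold change is given against a group listed at 0.

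**Figure D1:**
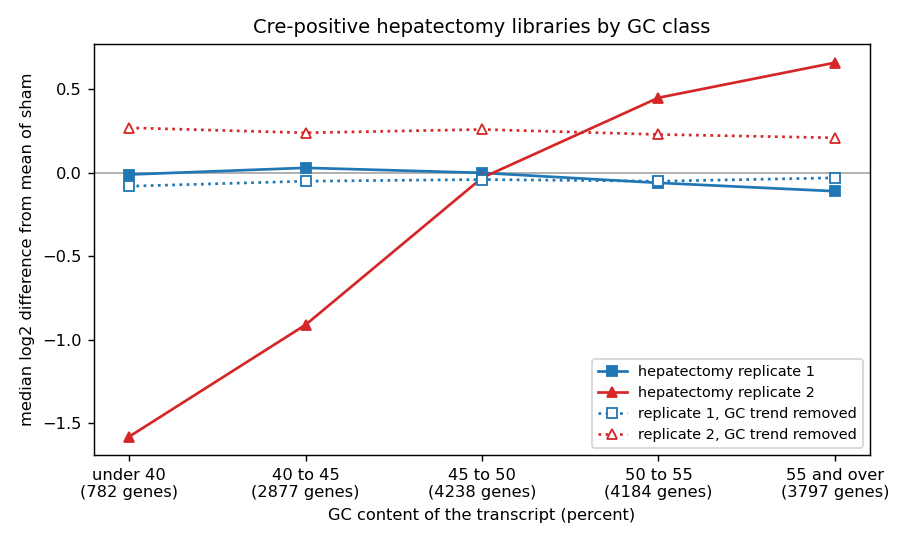
Median log2 difference of each Cre-positive hepatectomy library from the mean of the 2 sham libraries, in 5 classes of transcript GC content (number of genes below each class). Solid lines are the deposited values and dotted lines the values after the GC trend of each library was removed; replicate 2 runs from -1.58 in the class under 40% to 0.66 in the class of 55% and over, and after removal lies between 0.21 and 0.27.

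Pdgfrb, the gene whose deletion the labels describe, was measured first. It was at 59.4 and 46.0 in sham and at 63.1 and 99.9 after hepatectomy. Both hepatectomy libraries lay above both sham libraries, and the change did not pass the test (log2 fold change 0.59, 95% interval -0.32 to 1.50, adjusted p = 0.521). Gfap, whose promoter drives the Cre, was near the floor of these values, at 0.749, 1.04, 0.189 and 3.04. Which part of Pdgfrb is floxed was not stated in the labels, and other liver cells express the gene, so these values check the deletion in neither direction. Genotypes are those of the labels. Of the other 5 genes of the PDGF family 0 passed. Pdgfra, the alpha receptor, was at 73.7 and 58.6 in sham and at 42.3 and 37.0 after hepatectomy. Pdgfa, a ligand, was at 20.5 and 29.6 and then at 37.4 and 47.5.

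In Cre-positive livers 139 of the 16443 genes tested rose (0.845%) and 16 fell (0.0973%) at an adjusted p under 0.05. The median log2 fold change was 3.35 among those that rose and -3.38 among those that fell, against 0.02 over all genes. Of all 16443 genes 8490 had a positive log2 fold change. The 2 hepatectomy libraries lay beyond both sham libraries for all 155, an arrangement found upwards in 23.9% and downwards in 19.5% of all genes. With the GC trend removed, 264 of 15878 genes rose (1.66%) and 46 fell (0.29%), with 143 of the 155 among them; 6 of the 155 had no GC value. The number called rests on the spread estimated from all 8 libraries. It was 9 without either Cre-negative sham library, 1 and 5 without Cre-positive sham replicate 1 or 2, and 59 and 58 without Cre-negative hepatectomy replicate 1 or 2. It was 3459 without Cre-positive hepatectomy replicate 1, 135 without replicate 2, and 0 with only the 4 Cre-positive libraries in the fit. At an unadjusted p under 0.05, 1364 genes were higher and 855 lower.

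**Figure D2:**
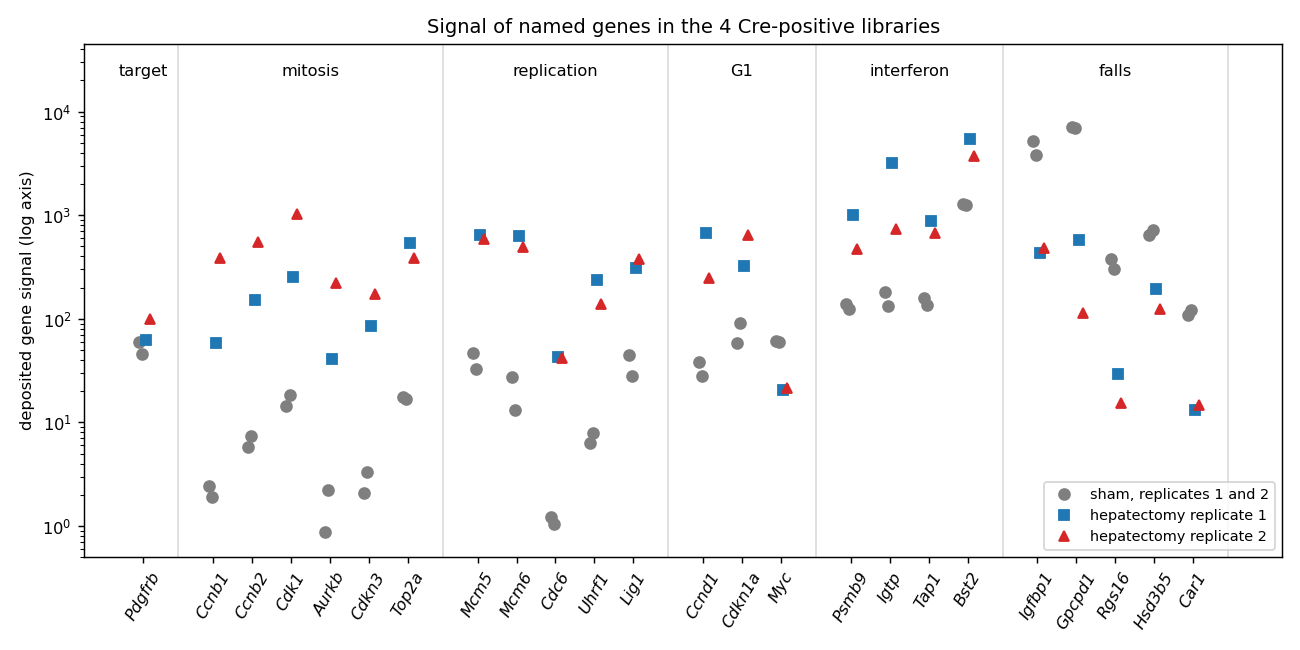
Deposited signal (log axis) of 24 genes, grouped by role, in each of the 4 Cre-positive libraries; each symbol is 1 library. Genes of mitosis and replication lie above both sham libraries in both hepatectomy libraries, as Ccnb1 does at 58.4 and 385 against 2.46 and 1.91, and the genes at the right lie below them, as Igfbp1 does at 436 and 480.3 against 5192 and 3788.

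Of the lists examined, that of G2 and mitosis held the most rises. Of its 55 tested genes 29 rose and 0 fell, where 0.845% of all genes rose. All 55 had fold changes above 0 on the log2 scale, where their median was 4.09. In both hepatectomy libraries 51 were above both sham libraries, as were 23.9% of all genes. Their summed signal was 801 and 650.3 in sham, 4976 in hepatectomy replicate 1 and 15130.3 in replicate 2. The median difference from sham was 3.55 in replicate 1 and 4.78 in replicate 2, and 43 of the 55 were higher in replicate 2, as were 9750 of all 16443 genes. After the GC trend was removed 40 of the 55 rose, with medians of 3.47 and 4.97. The count was 46 without hepatectomy replicate 1 (1446 of all genes rising) and 10 without replicate 2 (113 of all genes rising).

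Among the cyclins and their kinase, 5 of 8 rose. Ccnb1, which activates the kinase CDK1 for entry into mitosis, was at 2.46 and 1.91 in sham and at 58.4 and 385 after hepatectomy. Both hepatectomy values were far above sham and differed from each other, and the log2 fold change was 5.58 (SE 0.91, adjusted p = 0.0481, n = 2 a group as throughout), the largest among the calls above 0 in all 4 libraries. Its partner Ccnb2 rose from 5.77 and 7.37 to 151 and 548 (log2 5.26, SE 0.70). Cdk1 itself rose from 14.4 and 18.3 to 251 and 1023 (log2 4.88, SE 0.64). Ccna2, cyclin A2, rose by 4.48 on the log2 scale, and Cks1b, a small CDK-binding subunit, by 2.37. Cdc25b, the phosphatase that releases CDK1 from inhibition, was higher in both libraries (5.77 and 8.96, then 29.6 and 124) without passing (adjusted p = 0.115).

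Of 10 mitotic kinases 6 rose. Aurkb, the kinase of the chromosomal passenger complex, was at 0.879 and 2.24 in sham and at 41.2 and 221 after hepatectomy (log2 5.29, SE 0.80, adjusted p = 0.0408). Pbk rose from 3.77 and 2.22 to 85.8 and 187. Bub1 and Ttk, kinases of the spindle checkpoint, rose by 3.91 and 4.14 and were the ones of this set higher in replicate 1 (51.1 against 25.9 for Bub1, 61.9 against 50.5 for Ttk), as was Mastl, which did not pass. Plk1, the polo-like kinase, was at 3.87 and 5.83 in sham and at 39.5 and 452 after hepatectomy, and did not pass (log2 4.55, SE 1.01, adjusted p = 0.113).

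The genes that end mitosis had library medians of 2.82 and 5.11, and kinesins and spindle proteins 3.39 and 5.42. With the GC trend removed these were 2.75 and 4.95, and 3.37 and 5.56. Espl1 rose from 1.19 and 0.974 to 29.4 and 144 (log2 5.00, adjusted p = 0.0323), and Racgap1, which organises the central spindle for cytokinesis, from 5.79 and 7.32 to 92.3 and 571 (log2 4.94, adjusted p = 0.0466). Cdc20, the activator of the anaphase-promoting complex, had a larger fitted value than any mitosis gene that passed, with signals of 2.06 and 3.67 in sham and of 74.9 and 1057 after hepatectomy. The replicates differed widely and it did not pass (log2 6.23, SE 1.11, adjusted p = 0.0604), and it passed with the GC trend removed (adjusted p = 0.0309). In all, 4 of 9 genes of anaphase and cytokinesis rose.

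Of 10 kinesins and spindle proteins 5 rose, among them Tpx2, which targets Aurora A to the spindle (5.68 and 3.88 in sham, 87.4 and 334 after hepatectomy), and Kif4, a chromosome-bound kinesin (3.47 and 3.08, then 66.9 and 113). Kif23 was nearly equal in the hepatectomy libraries, at 54.2 and 46.9, against 3.41 and 3.88 in sham. Of 14 genes of chromosome structure 8 rose, and 12 with the GC trend removed; the median GC content of this set was 43.7%, the lowest of the mitosis roles. Top2a, the topoisomerase that untangles sister chromatids, rose from 17.5 and 16.8 to 539.8 and 389 (log2 4.66, SE 0.54, adjusted p = 0.0188). Nuf2, a kinetochore subunit, rose from 2.50 and 2.03 to 66.2 and 129.6. Smc2, a condensin core subunit with 39.7% GC, was at 24.3 and 27.4 in sham, at 181 in replicate 1 and at 20.1 in replicate 2.

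The transcription factor Foxm1 was at 1.27 and 2.49 in sham and at 26.9 and 162 after hepatectomy (log2 4.58, adjusted p = 0.0568; 0.0279 with the GC trend removed). Mybl2, which encodes B-MYB, was at 5.48 and 5.14 and then at 10.6 and 12 and did not pass (adjusted p = 0.44). Cdkn3 rose from 2.10 and 3.33 to 86.2 and 173, with a small error (log2 5.07, SE 0.41, adjusted p = 0.00776). Mki67, the Ki-67 marker of cycling cells, was at 11.9 and 6.44 in sham and at 122 and 30.3 after hepatectomy, and did not pass (log2 2.67, adjusted p = 0.134; 2.86 and 0.039 with the GC trend removed).

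DNA replication genes were the next largest set. Of 41 tested, 19 rose and 0 fell, and 38 had a positive fold change (median log2 1.82). Above both sham libraries lay 35, against 23.9% of all genes, so the hepatectomy libraries were alike in direction. The median difference from sham was 1.93 in replicate 1 and 2.10 in replicate 2, and their summed signal 8585 and 7969 against 2576 and 2506 in sham. Unlike the mitosis list, 19 of the 41 were higher in replicate 2 (the difference between the lists was not tested). With the GC trend removed 26 rose. Without hepatectomy replicate 1, 27 rose and 1 fell (1446 and 2013 of all genes), and without replicate 2, 8 rose (113 of all genes).

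In the set that licenses origins and unwinds DNA, 8 of 13 rose, and 1 of the 13 was higher in replicate 2. Mcm5, a subunit of the replicative helicase, was at 46.8 and 32.6 in sham and at 649.9 and 584 after hepatectomy. The replicates were 4.02 and 3.87 above sham on the log2 scale, close to each other (log2 fold change 3.94, SE 0.29, adjusted p = 0.00733). Mcm6 rose from 27.3 and 13.1 to 637 and 497 (log2 4.82), Mcm2 from 24.4 and 21.4 to 283 and 196 (log2 3.31) and Mcm3 from 47.0 and 36.5 to 363 and 229.9 (log2 2.77). Cdc6, which loads the helicase, rose from 1.23 and 1.05 to 42.4 and 41.4 (log2 4.33), and Cdc45, which activates it, from 8.49 and 25.9 to 150.3 and 121. Mcm10 was the exception among the helicase factors, at 391 and 474 in sham and at 427 and 264 after hepatectomy.

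At the fork 6 of 15 genes rose. Lig1, the ligase that joins Okazaki fragments, rose from 44.8 and 28.1 to 310.2 and 381 (log2 3.24, SE 0.34, adjusted p = 0.0176), Fen1, the flap nuclease, from 7.28 and 4.71 to 41.2 and 72.3, and Pole, a leading strand polymerase, from 34.5 and 33.1 to 169 and 231. Chaf1a and Chaf1b, of the complex that deposits histones behind the fork, rose by 2.93 and 2.17. Pcna, the sliding clamp, was at 346 and 298 in sham and at 909 and 397 after hepatectomy, and did not pass (adjusted p = 0.379; 0.0469 with the GC trend removed). Pola1, a polymerase subunit of 41.5% GC, was at 60.3 and 44.2 in sham, at 137 in replicate 1 and at 15.9 in replicate 2.

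Rrm1 and Rrm2, the subunits of ribonucleotide reductase, rose by 2.15 and 3.78 (13.8 and 29.6, then 233 and 363, for Rrm2). Uhrf1 and Dnmt1, which copy DNA methylation to the new strand, rose from 6.36 and 7.86 to 239 and 139.9 and from 111 and 110.1 to 383 and 401. E2f1, the activating E2F factor, rose from 8.01 and 11 to 69.4 and 93.4 (log2 2.97, SE 0.33, adjusted p = 0.0176). Tk1, the salvage thymidine kinase, was at 223 and 237 in sham, at 216 in replicate 1 and at 479.7 in replicate 2.

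Ccnd1 was the only one of 14 genes of G1 entry and CDK inhibition that rose. It encodes cyclin D1, and was at 37.9 and 27.9 in sham and at 674 and 250.4 after hepatectomy (log2 3.62, SE 0.53, adjusted p = 0.0356). Cdkn1a, the CDK inhibitor p21, was at 58.5 and 92.0 in sham and at 321 and 646 after hepatectomy (log2 2.62, adjusted p = 0.0829; 0.0473 with the GC trend removed). Myc, an early gene of regeneration, was lower in both libraries, at 20.5 and 21.7 against 61.7 and 60.3, without passing (log2 -1.49, SE 0.53, adjusted p = 0.29). Rbl2, the pocket protein p130 of quiescent cells, was at 419.9 and 380.4 in sham and at 204 and 177 after hepatectomy (adjusted p = 0.16).

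Of 21 genes of DNA repair and damage checkpoints 7 rose (library medians 1.76 and 0.60; 1.69 and 1.24 with the GC trend removed). Rad54l, of homologous recombination, rose from 1.92 and 1.20 to 40.8 and 63.6 (log2 4.36, adjusted p = 0.0156). Clspn, which signals stalled forks, rose by 3.87, Exo1, a nuclease, by 3.63, and Fanci and Fancd2, the paired Fanconi anemia proteins, by 3.94 and 3.77. Bard1 rose by 2.80. The large sensor kinases Atm and Atr, of 42.6% and 40.8% GC, were at 163 and 193 in replicate 1 and at 33.7 and 30.4 in replicate 2, against sham values of 126 and 113 and of 165 and 156.

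A further 76 rises fell in none of the lists, and many of those singled out here, after their values were seen, act in division too. Kntc1, a kinetochore protein of the checkpoint, rose from 5.93 and 2.73 to 153 and 146 (log2 4.89, SE 0.38, adjusted p = 0.00737). Psrc1, a spindle protein, rose from 1.47 and 0.797 to 49.0 and 53.0 (log2 4.62, adjusted p = 0.00737). Pkmyt1, which restrains CDK1, rose from 1.92 and 0.814 to 44.3 and 67.8. Iqgap3, Ckap2 and D2Ertd750e were among the largest rises, at log2 5.54, 5.22 and 5.47. H2afz, the histone variant H2A.Z, rose from 516 and 494 to 1678 and 2001 (log2 1.86).

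**Figure D3:**
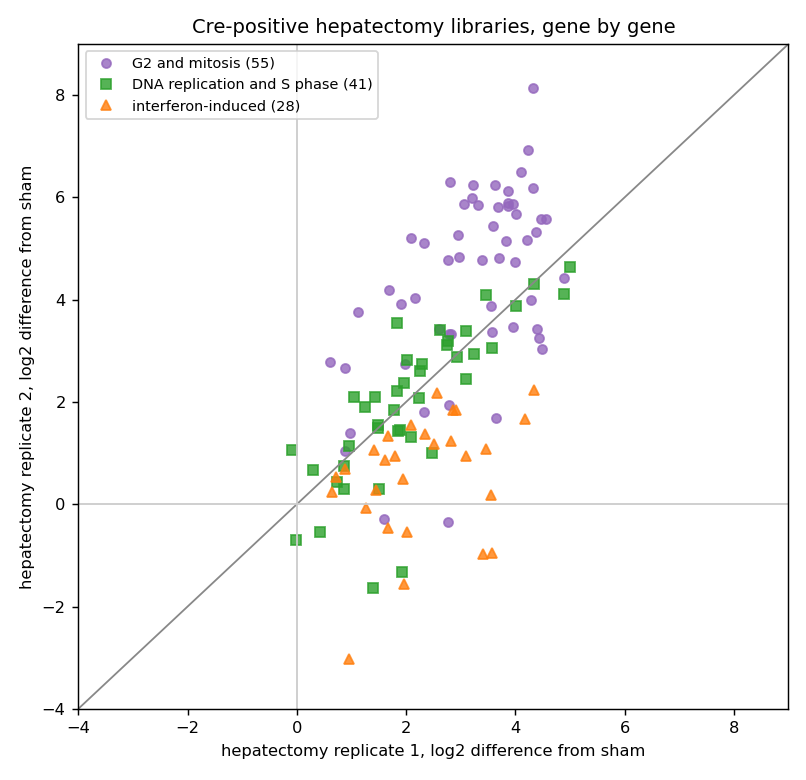
Log2 difference from the mean of the 2 Cre-positive sham libraries in hepatectomy replicate 1 (horizontal) and replicate 2 (vertical) for genes of 3 lists; the diagonal marks equal differences. Of the mitosis genes 43 of 55 lie above the diagonal, of the replication genes 19 of 41, and of the interferon-induced genes 0 of 28.

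Interferon-induced genes stood in the opposite order to the mitosis genes. Of 28 tested, 3 rose and 0 fell, and the median log2 fold change was 1.34. Above both sham libraries were 19 of the 28, against 23.9% of all genes. All 28 were higher in hepatectomy replicate 1 than in replicate 2. All 28 were above sham in replicate 1 (median 2.05) and 21 in replicate 2 (median 0.90). Their summed signal was 8172 and 7683 in sham, 36892 in replicate 1 and 16178 in replicate 2. Within the list, replicate 2 was lowest in the class of lowest GC. The 4 genes under 45% GC had a median of 1.61 in replicate 1 and of -1.27 in replicate 2. The 11 genes of 45 to 50% GC had 2.82 and 0.94, and the 13 genes of 50% or more had 2.09 and 1.18. With the GC trend removed the medians of the list were 2.04 and 0.80, so the gap between the replicates did not narrow. Then 1 of the 28 rose, Igtp, where 1.66% of all genes with a GC value did. Over all genes the medians were -0.03 in replicate 1 and 0.18 in replicate 2, and -0.04 and 0.23 with the GC trend removed.

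The 3 that rose had GC contents of 55.3% to 57.3%. Tap1, the peptide transporter of antigen processing, was at 160.3 and 135 in sham and at 874 and 670.4 after hepatectomy (log2 2.37, SE 0.39, adjusted p = 0.049). Psmb9, an immunoproteasome subunit, rose from 139 and 125 to 1008 and 475 (log2 2.38, SE 0.39, adjusted p = 0.0481). Bst2 rose from 1275 and 1263 to 5414 and 3699 (log2 1.82, SE 0.30, adjusted p = 0.049). With the GC trend removed these had adjusted p = 0.0556, 0.0612 and 0.0697. The 200 bases upstream of Tap1 and of Psmb9 hold 0 matches to the interferon element, and those of Bst2, printed above, hold 2.

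Igtp, a GTPase induced by interferon-gamma, was at 182 and 132 in sham and at 3182 and 730.2 after hepatectomy (log2 3.29, adjusted p = 0.0788; 0.044 with the GC trend removed). Iigp1, of the same GTPase family and 39.3% GC, was at 706 and 385 in sham, at 7135 in replicate 1 and at 47.8 in replicate 2. Gbp6, Gbp7 and Gbp10, guanylate-binding proteins, were at 1674, 735 and 1921 in replicate 1 and at 61.6, 13.8 and 61.3 in replicate 2. Among genes at 10 or more in both hepatectomy libraries, these 4 were in the 8 with the lowest ratio of replicate 2 to replicate 1, as were BC023105, Pcmtd1 and Stag2, all of 45.2% GC or less.

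**Figure D4:**
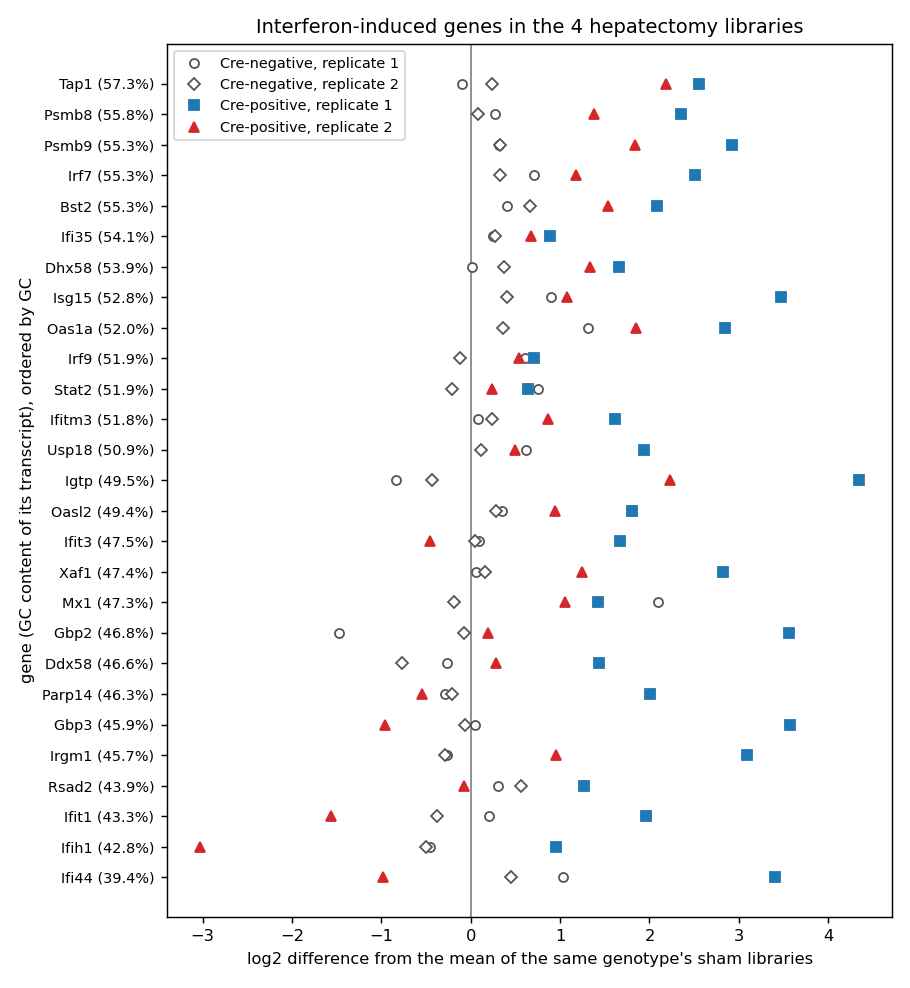
Log2 difference of 27 of the 28 interferon-induced genes from the mean of the sham libraries of the same genotype, in the 2 Cre-positive and 2 Cre-negative hepatectomy libraries, ordered by the GC content of the transcript. Cre-positive replicate 1 lies to the right of replicate 2 for each gene shown, and the genes under 45% GC lie below 0 in replicate 2.

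Ube2l6, which attaches the ubiquitin-like ISG15 to proteins and was in no list, rose from 351 and 309 to 1445 and 1151 (log2 1.97, adjusted p = 0.0409; 0.0225 with the GC trend removed). Of 10 further genes of antigen presentation 0 passed, with 1.04 as the median in replicate 1 and 0.30 in replicate 2. Ciita, the master regulator of MHC class II, was at 6.82 and 4.75 in sham and at 45.9 and 25.5 after hepatectomy (log2 2.39, adjusted p = 0.0739). The class I gene H2-K1 was at 18399.9 and 15294 in sham and at 12562 and 17078 after hepatectomy. In Cre-negative livers the interferon list had a median log2 fold change of 0.19, where that of all genes was 0.21. There Igtp was at 130.2 and 205 in sham and at 91.2 and 121 after hepatectomy. For Igtp the difference between the responses of the genotypes was 3.92 (95% interval 1.79 to 6.04) and did not pass over all genes (adjusted p = 0.435).

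Fewer genes fell. Igfbp1, which hepatocytes secrete to bind insulin-like growth factors, was among them: it was at 5192 and 3788 in sham and at 436 and 480.3 after hepatectomy. The groups were far apart and the replicates close, a 9.67-fold fall (log2 -3.27, SE 0.24, adjusted p = 0.00733). Gpcpd1, a glycerophosphocholine phosphodiesterase, fell 27.4-fold, from 7169 and 6993 to 575 and 115 (log2 -4.77, SE 0.72, adjusted p = 0.0403). Rgs16, a brake on G protein signalling, fell from 377 and 304 to 29.3 and 15.3 (log2 -3.93, SE 0.39, adjusted p = 0.0176). Ppp1r3g, a glycogen-targeting subunit of protein phosphatase 1, fell from 22.3 and 53.2 to 0.251 and 1.55, and Car1, a carbonic anhydrase, from 108 and 122 to 13.2 and 14.8. Other falls were Fmn2, an actin-nucleating formin (log2 -2.82), and the less studied genes Gm4956, Gm13775, Gm14097, AI317395 and 1110034G24Rik. Tex12 and Mpv17l, of 34.3% and 40.9% GC, fell by 2.01 and 1.57 and did not pass with the GC trend removed, nor did Gm13775.

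Genes of glucose handling were lower in most cases, and 1 passed. Of 20 tested, Igfbp1 fell, 19 had a negative fold change (median log2 -0.78) and 14 lay below both sham libraries, where 19.5% of all genes did. The medians of the hepatectomy libraries were -0.69 and -0.81. Gckr, the regulator of glucokinase, was at 2361 and 2347 in sham and at 1161 and 1364 after hepatectomy (adjusted p = 0.172). Pklr, the liver pyruvate kinase, was at 1469 and 1369 and then at 545 and 685 (log2 -1.21, adjusted p = 0.0981), and fell with the GC trend removed (adjusted p = 0.0286). Its counterpart Pkm2, the pyruvate kinase of proliferating and non-hepatic cells, rose from 144 and 119 to 467 and 468 (log2 1.83, SE 0.26, adjusted p = 0.0323). Hk3, a hexokinase chiefly of myeloid cells, rose from 44.8 and 34.1 to 209 and 159.6 (log2 2.20). Irs2, an insulin receptor substrate, was at 110.3 and 27.0 in sham and at 13.7 and 7.24 after hepatectomy.

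Of 25 genes of fatty acid and sterol synthesis 0 passed, and the median was 0.02. With the GC trend removed 2 fell: Thrsp, a lipogenic factor, at 2340.1 and 3426 in sham and at 814 and 511 after hepatectomy (adjusted p = 0.0368), and Insig1, which holds back sterol synthesis, at 1263 and 1049.9 and then at 526 and 451 (adjusted p = 0.031).

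Lists of hepatocyte function differed. Over all genes, 8490 of 16443 had a positive fold change. Hepatocyte markers had a median of 0.00 with 7 of 15 positive, PPAR-alpha targets one of -0.06 with 12 of 28 positive, and hepatocyte transcription factors one of -0.16 with 7 of 18 positive; 0 genes of these 3 lists passed. Of 22 cytochromes P450 of drug metabolism 5 were positive and 0 passed (library medians -0.47 and -0.58), and 2 rose with the GC trend removed. Cyp2e1 was at 142619 and 208548 in sham and at 60405 and 55450 after hepatectomy (log2 -1.58, adjusted p = 0.0775). Genes of the urea cycle and amino acid catabolism had library medians of -0.55 and -0.75, with 16 of 22 below both sham libraries. Those of bile acid synthesis and transport had library medians of -0.35 and -0.95, with 10 of 18 below both. Of all genes 19.5% lay below both, and 0 genes of these lists passed. Glul, which makes glutamine in the last hepatocytes before the central vein, was at 8179.6 and 8437 in sham and at 3865 and 4418 after hepatectomy (log2 -1.01, adjusted p = 0.0958). Slc1a4, an amino acid transporter of the pericentral list, was its only member to pass, rising from 10 and 8.11 to 39.8 and 79.8 (log2 2.52, adjusted p = 0.045). Slco1b2 and Slco1a1, organic anion transporters of 38.6% and 38.5% GC, were at 11316 and 4730.4 in replicate 1 and at 719.7 and 286 in replicate 2; in sham Slco1b2 was at 12436 and 13355 and Slco1a1 at 5034 and 4787.

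Of 15 male-biased liver genes 1 fell and 0 rose (3 positive, library medians -0.34 and -1.05). Of 11 female-biased genes 2 rose and 0 fell (7 positive, library medians 0.38 and 0.96), and their summed signal was 2494 and 1028 in sham and 1016 and 658 after hepatectomy. Hsd3b5, a steroid dehydrogenase of male liver, fell from 639.7 and 714 to 192 and 125 (log2 -2.11, SE 0.35, adjusted p = 0.049), and Cyp4a12a, a male-biased hydroxylase, was at 4899.9 and 7320.2 and then at 2171 and 2824 (adjusted p = 0.113). Of the female-biased genes Cyp3a44 rose from 4.54 and 5.67 to 143 and 40.4 (log2 3.66, SE 0.58, adjusted p = 0.045) and Cyp3a16 from 2.29 and 3.00 to 77.3 and 23.6. These are near-identical copies whose reads may have been split by the authors' quantification, so each value is uncertain. Their relative Cyp3a11 was at 2048 and 2445 in sham, at 87107 in replicate 1 and at 13427 in replicate 2 (log2 3.93, SE 0.75, adjusted p = 0.0735; 0.00494 with the GC trend removed).

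Acute phase genes were uneven. Of 19 tested 0 passed, with medians of 0.26 and 0.10. Hpx was at 177553 and 125628 in sham and at 341076 and 1452243 after hepatectomy, and Hp, haptoglobin, at 57111 and 53118 and then at 74381 and 186042. Fgb, the fibrinogen beta chain of 44.1% GC, was at 142101 in replicate 1 and at 52054 in replicate 2, against 84500.1 and 74308 in sham. Hamp, hepcidin, was at 6497 and 12207 in sham and at 31004 and 7376 after hepatectomy. Of 76 ribosomal protein genes 66 had a positive fold change (median 0.35, with 0.25 and 0.49 in the 2 libraries). Above both sham libraries lay 56, and 0 passed. Of all 16443 genes 8490 were positive and 23.9% lay above both sham libraries.

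**Figure D5:**
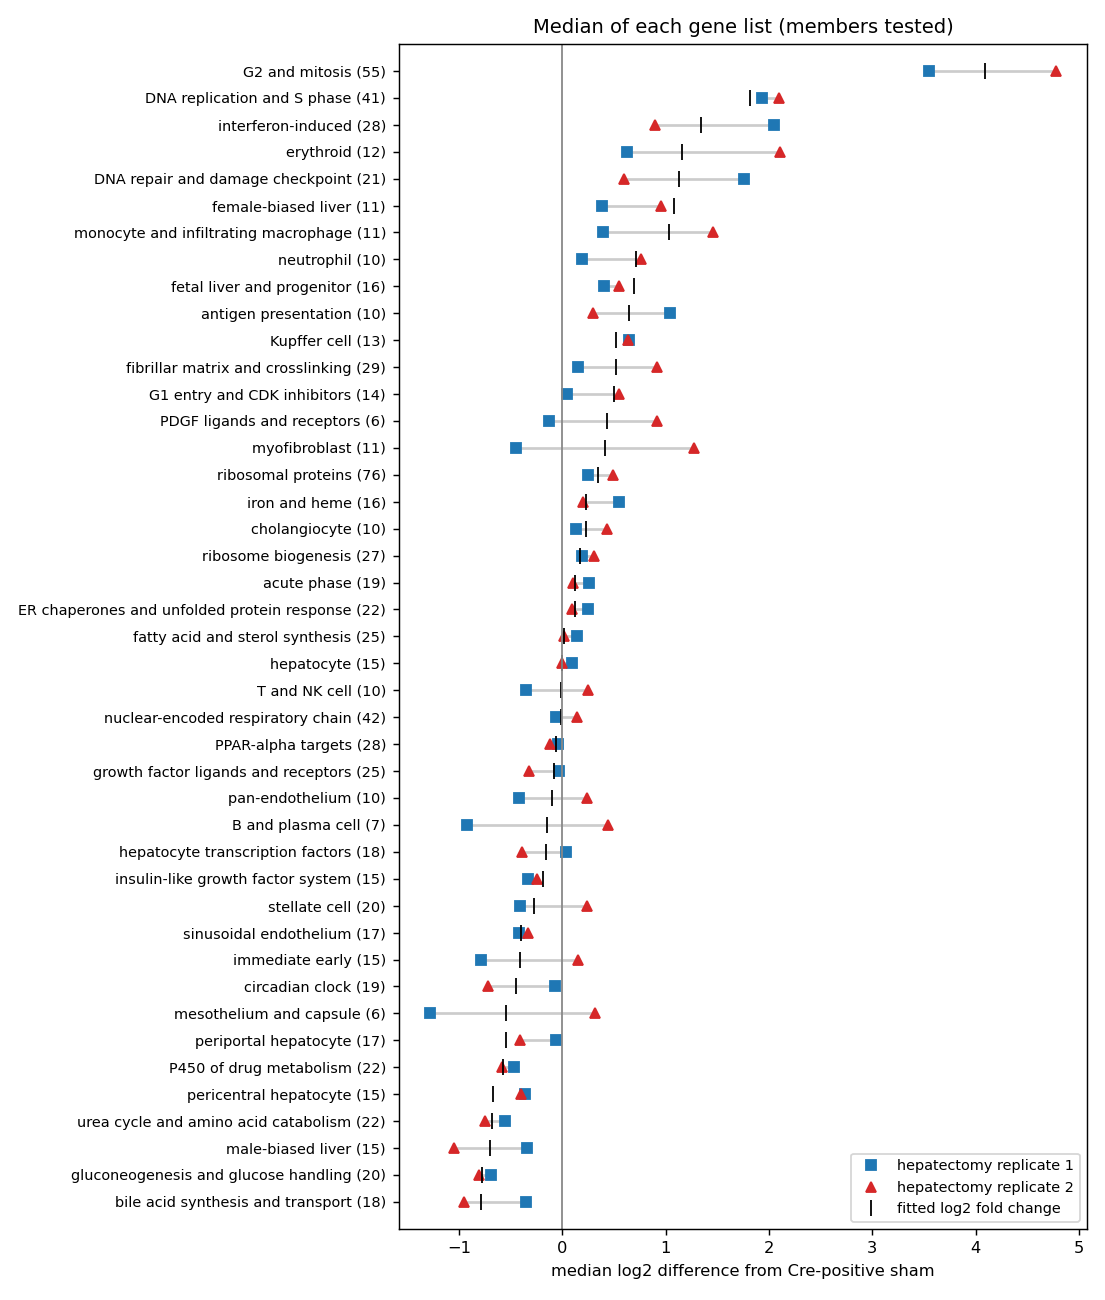
Median log2 difference from Cre-positive sham of each gene list with 5 or more members tested (number in brackets), in hepatectomy replicate 1 and replicate 2, with the median of the fitted log2 fold changes as a bar. Mitosis, replication and interferon lists stand at the top (fitted medians 4.09, 1.82 and 1.34), and myofibroblast markers have opposite signs in the 2 libraries (-0.45 and 1.27).

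Of 20 stellate cell markers 1 rose, 0 fell, 8 had a positive fold change and the median was -0.27. The library medians had opposite signs, at -0.41 and 0.24, where those of all genes were -0.03 and 0.18. With the GC trend removed they were -0.40 and -0.17, against -0.04 and 0.23 over all genes. Above sham were 7 of the 20 in replicate 1 and 11 in replicate 2, as were 7755 and 9363 of all 16443 genes. In both replicates 4 lay above and 5 below both sham libraries, against 23.9% and 19.5% of all genes. Their summed signal was 5485 and 4139.6 in sham and 3123 and 2871 after hepatectomy. Ecm1 alone made up 1831 and 1386 of the sham sums. Lrat, which stores retinol as ester, was at 10.7 and 13.9 in sham and at 8.02 and 3.22 after hepatectomy. With the GC trend removed, Colec10, a stellate collectin, fell (181 and 147 in sham, 52.2 and 11.6 after hepatectomy, adjusted p = 0.0232), as did Ecm1, a secreted matrix protein (1831 and 1386, then 432 and 969, adjusted p = 0.0437). Hgf, the hepatocyte growth factor, of 39.9% GC, was at 193 and 116 in sham, at 190.5 in replicate 1 and at 16 in replicate 2.

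Myofibroblast markers separated the hepatectomy libraries. Of 11 tested 10 were above sham in replicate 2 and 3 in replicate 1, where 9363 and 7755 of all 16443 genes were. Their summed signal was 371 and 513 in sham, 689 in replicate 1 and 1516 in replicate 2. Col1a1 alone made up 89.6 and 248 of the sham sums, and 482 and 1051 of those after hepatectomy. Acta2, smooth muscle actin, was at 27.6 and 40 in sham, at 19.6 in replicate 1 and at 129 in replicate 2, and Tagln, transgelin, at 28.7, 36.3, 28.8 and 73.2. Col1a1, type I collagen, was above sham in both, at 482 and 1051 against 89.6 and 248, without passing (log2 2.25, SE 0.53, adjusted p = 0.131). With the GC trend removed the medians of the list were still apart, at -0.42 and 1.30.

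Markers of other cell types were examined in the same libraries. Kupffer cell markers had medians of 0.65 and 0.64, and 9 of 13 lay above both sham libraries; Cd5l, a secreted macrophage protein, was at 417 and 411 in sham and at 1420 and 1166 after hepatectomy (adjusted p = 0.0849). Of 11 markers of monocytes and infiltrating macrophages 3 lay above both sham libraries, a share near the 23.9% of all genes (library medians 0.39 and 1.46). Sinusoidal endothelial markers had a median of -0.40, with 9 of 17 below both sham libraries, where 19.5% of all genes lay. Erythroid markers were higher in replicate 2 (median 2.11 against 0.63): the globin gene Hba-a1 was at 905 and 2323 in sham, at 3377 in replicate 1 and at 17993 in replicate 2. The summed signal of T and NK cell markers lay between 27.8 and 58.0 in all 4 libraries and that of B and plasma cell markers between 9.65 and 28.4. The part of cell composition in the results above was not tested.

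The clock genes also differed between the hepatectomy libraries. Arntl, the activator BMAL1, was at 28.4 and 25.3 in sham, at 11.8 in replicate 1 and at 149 in replicate 2, and Npas2, its partner, at 0.605, 0.434, 0.225 and 10.2. Their targets were in the opposite order. Dbp was at 211 and 339 in sham, at 312 in replicate 1 and at 21.6 in replicate 2, and Nr1d2 at 469, 487, 596 and 33.9. Of 19 clock genes 0 passed, and the library medians were -0.07 and -0.72 (0.03 and -0.97 with the GC trend removed). The labels give no time of day of collection, and whether it differed was not tested.

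Some further rises were of genes in none of the lists. Cbx8, a Polycomb chromobox protein, rose 23.8-fold, from 10.1 and 10.4 to 249.8 and 285 (log2 4.57, SE 0.33, adjusted p = 0.00733). Isyna1, the inositol phosphate synthase, rose from 123 and 96.0 to 686 and 1310.2 (log2 3.11, adjusted p = 0.0176), and Anxa2, annexin A2, from 197 and 219 to 598 and 743. Akr1b3, aldose reductase, rose from 54.5 and 77.7 to 419 and 385. Plxnb1, a semaphorin receptor, rose from 246 and 195 to 825 and 942, and Mlec, a lectin of the endoplasmic reticulum, from 184 and 168 to 624 and 749.6.

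The same contrast in Cre-negative livers, which uses none of the 4 libraries but shares the spread of the fit, called 166 genes rising (1.01%) and 17 falling (0.103%). Of these, 88 of the rises were shared, 63.3% of those in Cre-positive and 53.0% of those in Cre-negative livers, as were 3 of the falls. The mitosis list had a median of 3.94 there and the replication list 1.51, against 0.21 over all genes. The difference of the 2 responses was tested for every gene and passed for 2 (0.0122%; 1330 at an unadjusted p under 0.05), both with values at or near 0 in some libraries. SCARNA4, a small Cajal body RNA, was at 57.2 and 34.3 in Cre-positive sham and listed at 0 in both Cre-positive hepatectomy libraries. In Cre-negative libraries it was at 18.6 and 19 in sham and at 47.4 and 52.2 after hepatectomy (adjusted p = 0.0285). AL845466.1 was at 2049.7 and 622 in Cre-positive sham and at 0.00206 or less in the other 6 libraries (adjusted p = 0.0285). Neither was tested with the GC trend removed, having no GC value.

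Igfbp1 came next to these among genes with values well above 0. It was at 6883 and 5838 in Cre-negative sham and at 7883 and 8615 after hepatectomy in Cre-negative livers, where both hepatectomy libraries were above sham; the difference of the responses was -3.65 (95% interval -4.46 to -2.84, adjusted p = 0.0631). Cbx8 was at 13.4 and 9.01 in Cre-negative sham and at 15.4 and 13.2 after hepatectomy, with a difference of 4.23 (95% interval 3.15 to 5.31, adjusted p = 0.122). Hk3 was at 64.1, 73.8, 73.8 and 66.4 in the same 4 libraries, with a difference of 2.17 (adjusted p = 0.329). Ccnd1 was at 54.9 and 50.2 and then at 159 and 77.3, with a difference of 2.55 (adjusted p = 0.543). None of these differences passed over all genes, so a response particular to Cre-positive livers was not shown for them.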

How the data were processed

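The 8 whole-liver RNA libraries form 4 groups of 2, taken from the sample titles. The authors deposited a normalized signal per gene (34465 genes); per the submitters' processing notes TopHat and Cufflinks were used, with the builds NCBIM37 and mm9. Their versions, the depth and how the signal was normalized are not given in the sources used here. As these are no counts, no counting interval is printed, and levels are not compared between genes. The isoform table was not used here.

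The model was limma (3.58.1; R 4.3.3), fitted to log2(signal + 1), which understates the change of low genes. Genes with a mean of at least 1 over the 8 libraries (16443) were fitted with 1 mean per group, 1 spread for all groups, and moderation that follows mean signal (4 residual and 3.25 prior degrees of freedom), two-sided, with Benjamini-Hochberg adjustment over all genes and a threshold of 0.05. Differences per library are from the mean log2 value of the 2 sham libraries, with no test. With 2 libraries against 2, an exact permutation test could not pass the threshold. GC content came from the longest GENCODE M21 transcript of a symbol (15878 of the 16443 genes, 96.6%). The GC trend was removed as a loess fit (span 0.3) of each library's deviation from the mean of all libraries. Promoters came from a RefSeq table (GRCm38.p6), which matched 10387 of the genes tested. The fit was tested on simulated data that had 1 spread per gene for all groups. In the data the median absolute log2 difference was 0.2 between the Cre-positive sham and 0.68 between the Cre-positive hepatectomy libraries. The simulation therefore does not show how the calls behave under unequal spread.

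The comparison, the 44 gene lists (14 of cell type markers) and the rules for names were chosen with earlier results of these data known. Named were Pdgfrb and Gfap, the 12 largest rises and falls among calls with no overlap and no 0, the 8 calls of highest signal, up to 4 called or 2 other members of each list, genes by the difference between genotypes, and the 8 genes highest and lowest in replicate 2 against replicate 1; other names were chosen after their values were seen. Alternatives covered the pseudocount, the filter, scaling, GC, weights, the trend and each library left out in turn. A few genes counted in the lists are not reported here by name.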

Additional observations from a re-analysis of the deposited data

Results flagged for a closer look

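Results are listed here when the response differed between genotypes in the test of the difference, or when both hepatectomy libraries moved beyond both sham libraries in opposite directions in the 2 genotypes. Only SCARNA4 and AL845466.1 passed that test (adjusted p = 0.0285 for each); both have values at or near 0 in some libraries. The others moved in opposite directions, and their differences of log2 fold change, Cre-positive minus Cre-negative, did not pass over all genes. The share of all genes that moved in opposite directions in this way was not counted. In Cre-positive livers alone 23.9% lay above and 19.5% below both sham libraries, so such moves need not be unusual. The difference was -5.78 for Ppp1r3g and -3.65 for Igfbp1, both of which fell in Cre-positive livers. It was -4.62 for RP23-268N22.1.1 and -1.78 for Igj, the immunoglobulin joining chain. Among interferon-induced genes it was 3.92 for Igtp, 2.29 for Irgm1 and 1.38 for Ddx58. For the nuclear receptors Hnf4a and Rxra it was 1.04 and 1.24, and for the ATP synthase subunit Atp5b 0.68.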

How the results depend on the processing

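The 155 calls became 78 with a pseudocount of 10, 7 with no filter, 99 with quantile normalization, 310 with the GC trend removed, and 0 with library weights (0.247 for each Cre-positive hepatectomy library, 2.62 for each Cre-positive sham library) or when the 4 Cre-negative libraries were dropped. Leaving out 1 library gave 1 to 3459 calls. The 2 calls of the difference between genotypes became 1 with a pseudocount of 0.1 or no filter, and 0 with a pseudocount of 10, a mean of at least 10, the GC trend removed or library weights, and 0 to 732 without 1 library. Alternatives chosen after seeing the data combined GC removal with leaving out Cre-positive hepatectomy replicate 1 or 2, which gave 1495 or 178 calls of the response and 5 or 20 of the difference; restricting the fit to genes with a GC value gave 166 and 0. Of 48 named genes past the threshold 0 changed sign under those of the 21 alternatives they were part of. Of the 48, 45 were in the fits limited to genes with a GC value, and 47 in that with a mean of at least 10. Leaving out a library, or another pseudocount or filter, could not change these signs, since the hepatectomy libraries lay beyond both sham libraries. With no filter 43 of the 48 no longer passed, and with library weights or the Cre-positive groups only all 48. Of 65 named genes not past the threshold 30 changed sign. The calls rest on sham libraries that agree closely and on a spread shared between groups. No paired analysis was possible because the titles number the libraries 1 to 8 and carry no replicate number shared by groups.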
